A study of Arabidopsis thaliana with 12 samples.

Results

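The expression of 83 Arabidopsis genes was followed that were higher in seedlings with an inducible WUSCHEL protein (WUS-GR) than in wild-type Col-0 after dexamethasone (DEX), and lower in that line than in the wild type when the histone deacetylase inhibitor trichostatin A (TSA) was given with DEX. They were chosen from their own measured values. A gene was a member if its mean log2 CPM (read counts scaled to a common library size, which was normalised with TMM) in WUS-GR minus that in Col-0 was at or below -0.5 in DEX plus TSA and at or above 0.5 in DEX, which is a 1.41-fold difference in each direction. A mean log2 CPM above 1 over all libraries was also required, and plastid and mitochondrial genes were not considered. Of 34262 genes in the count table, 17915 passed the filter on low counts, 14065 of these were nuclear genes above that level, and 83 turned in this direction (the limits on both differences alone were met by 1.38% of the tested genes, a share fixed by the choice), all of them annotated as protein-coding. The opposite turn, from lower to higher in WUS-GR with TSA, was made by 111 genes, which serve as a comparison set.

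RNA was taken from whole seedlings, 5 days after germination, in 4 conditions with 3 biological replicates each: WUS-GR in DEX plus TSA, Col-0 in DEX plus TSA, WUS-GR in DEX, and Col-0 in DEX. WUS-GR is a single-insertion homozygous line, written pUBI10::mCherry-GR-linker-WUS in the labels, in which a ubiquitously active promoter drives WUS fused to mCherry and to the steroid-binding part of the glucocorticoid receptor. All 12 libraries received DEX for 2 h, which the labels give as 25 µM and the study's methods at another concentration, and TSA was used at 1 µM. No library without DEX was analysed here, so an effect of the transgene line that is unrelated to WUS cannot be told apart from one of WUS. The promoter of the transgene is active in nearly every cell type, so WUS was not limited to its own domain.

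WUS is a homeodomain transcription factor that keeps stem cells of the shoot apical meristem undifferentiated, and it can recruit TOPLESS co-repressors, which bring in histone deacetylases. Histone deacetylases remove acetyl groups from histone tails, and TSA, which blocks their active site, leaves chromatin more acetylated. Many genes respond to TSA within hours in either direction.

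Total counts per library ran from 14810658 to 21578662, and WUS itself, which also counts the transgene, had 94664 to 142276 counts in WUS-GR and 38 to 42 in Col-0 with DEX plus TSA, and 110757 to 118246 in WUS-GR and 27 to 52 in Col-0 with DEX alone. Plastid-encoded genes held 0.421 to 1.13% and 0.315 to 1.32% of the counts of WUS-GR libraries with and without TSA, against 0.143 to 0.170% and 0.0778 to 0.148% in Col-0. The part of this difference in the results was not tested. Markers of leaf mesophyll (4 of 4) and of phloem were present in every library, whereas EXPA7, EXPA18 and SHV2, genes of root hairs, had 0 counts in 11, 12 and 12 of 12 libraries, which goes against a whole seedling with its root. MYB66, also a root marker, had 0 to 4 counts, with 0 in 6 libraries. The remaining root markers SCR and SHR, which shoots also express, had 51 to 263 and 27 to 65 counts. Summed mesophyll markers reached 4603 to 5187 CPM in WUS-GR and 2992 to 3466 CPM in Col-0 with DEX plus TSA, and 2211 to 2669 CPM in WUS-GR and 1696 to 2290 CPM in Col-0 with DEX. The phloem marker SUC2 had 179 to 193 CPM in WUS-GR and 272 to 303 CPM in Col-0 with DEX plus TSA, against 55.2 to 59.4 CPM in WUS-GR and 164 to 180 CPM in Col-0 with DEX. These markers moved with genotype and with TSA, and their part in the results below was not tested. In bulk RNA of this kind, fewer cells of a type and less RNA per cell cannot be told apart.

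Because the genotype differences in both treatments chose the genes, they are described without a test. With DEX plus TSA, the median log2 difference of WUS-GR minus Col-0 over the 83 genes was -0.71, ranging from -1.97 to -0.50, and with DEX it was 0.84, ranging from 0.51 to 2.14. The change between the treatments had a median of -1.63 on the log2 scale and reached -3.29 for MBP1. A difference of at least 1 was present in DEX for 26 genes, in the other direction in DEX plus TSA for 18, and in both for 7. The values just inside and just outside the limits lay close together: TET10 (0.51) and AT1G66530 (0.51) were just inside in DEX and AT2G38180 (0.49) and UGT84A3 (0.48) just outside, and AT4G16500 (-0.50) and AT1G25500 (-0.50) were just inside in DEX plus TSA and PEL3 (-0.49) and AT1G56120 (-0.49) just outside.

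**Figure D1:**
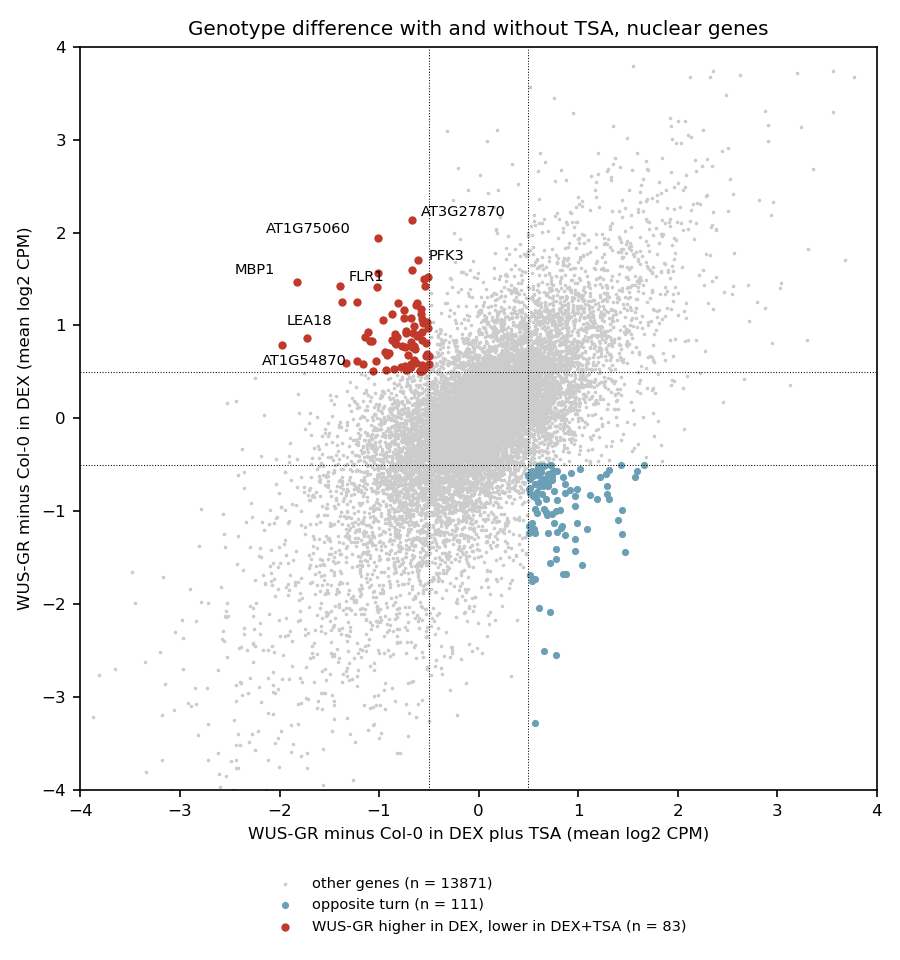
Difference in mean log2 CPM between WUS-GR and Col-0 with DEX plus TSA (horizontal) and with DEX (vertical) for each nuclear gene with a mean log2 CPM above 1. Red points are the 83 genes in the upper left, blue points the 111 genes with the opposite turn and grey points all others. Dotted lines mark differences of 0.5 and -0.5, and 51 genes lie outside the axes.

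Replicates of the 2 genotypes did not overlap in DEX plus TSA for 72 of the 83 genes (30.3% of all genes tested had each WUS-GR library below each Col-0 library there), nor in DEX for 74 (31.3% of all genes, WUS-GR above). Both held for 64 genes, against 2.15% of all genes. The quasi-likelihood test called 75 genes lower in WUS-GR with DEX plus TSA (27.2% of all genes), 75 higher in DEX (27.1%), and 81 with a negative interaction of genotype and TSA (13.3%). The rule used these same contrasts, so nothing is read from those counts. Replicates overlapped in at least 1 treatment for 19 of the 83 genes.

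The turn arose in different ways. The averages of the 4 conditions fell into 6 orders. In 26 genes the order from high to low was WUS-GR in DEX, Col-0 in DEX, Col-0 in DEX plus TSA, WUS-GR in DEX plus TSA, so that both genotypes were lower with TSA. In 21 genes Col-0 in DEX plus TSA stood above Col-0 in DEX, with WUS-GR in DEX at the top and WUS-GR in DEX plus TSA at the bottom. In 15 genes both genotypes were higher with TSA, and the order ran from Col-0 in DEX plus TSA over WUS-GR in DEX plus TSA and WUS-GR in DEX down to Col-0 in DEX. The remaining genes were higher with TSA in Col-0 and lower with TSA in WUS-GR, and had one of 3 further orders, with 12, 5 and 4 genes. Altogether the TSA effect was negative in WUS-GR and positive in Col-0 for 42 genes, negative in both for 26, positive in both for 15 and positive in WUS-GR alone for 0, a difference whose direction the rule fixes.

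**Figure D2:**
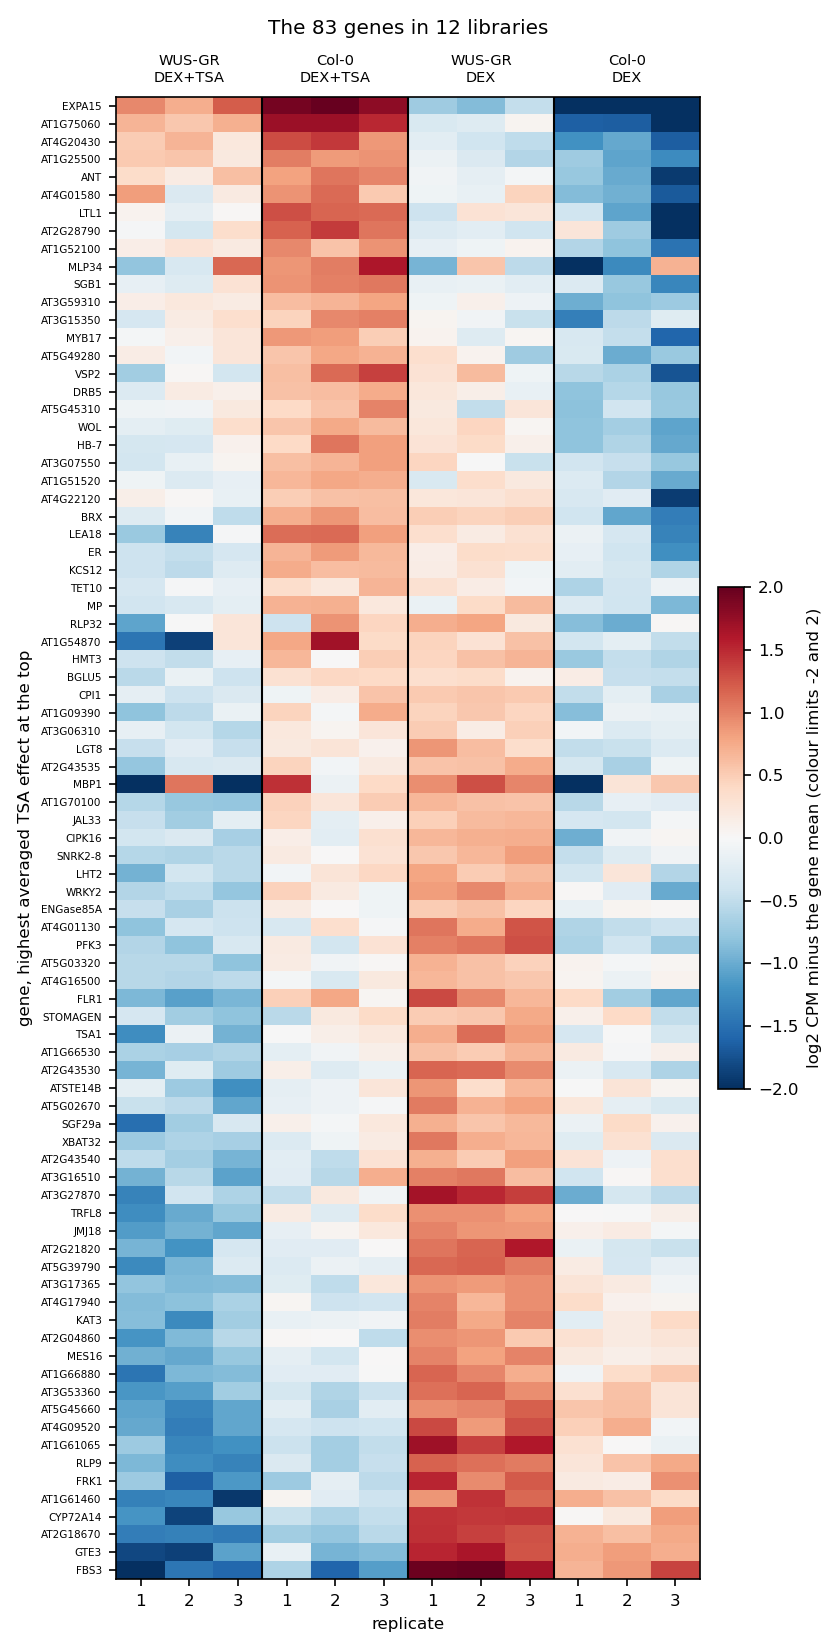
Log2 CPM of each of the 83 genes (rows) in each of the 12 libraries (columns, 3 replicates per condition), as the difference from the mean of that gene over all libraries. Genes are ordered by the TSA effect averaged over genotypes. EXPA15 and AT1G75060, at the top, are high in all 6 TSA libraries, and GTE3 and FBS3, at the bottom, are low in all 6. Colours are limited at -2 and 2.

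The group of receptors, signalling peptides and protein kinases, in which the regulator BRX and the tetraspanin TET10 were also placed, numbered 14. ERECTA (ER), a leucine-rich repeat receptor kinase that controls stem growth and the spacing of stomata, turned with all replicates apart. With DEX plus TSA it had 32.9, 31.6 and 34.9 CPM in WUS-GR and 70.2, 79.8 and 69.1 CPM in Col-0. With DEX it had 48.2, 56.5 and 56.2 CPM in WUS-GR and 39.2, 33.2 and 18.8 CPM in Col-0. The genotypes did not overlap in either treatment, and WUS-GR with TSA lay within the range of untreated Col-0. The log2 difference was -1.14 with TSA and 0.88 without.

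STOMAGEN, a secreted peptide that promotes stomata and competes with other peptides for receptors of the ER family, turned less clearly. It had 1.48, 1.13 and 1.04 CPM in WUS-GR and 1.27, 2.19 and 2.50 CPM in Col-0 with DEX plus TSA, and 2.76, 2.81 and 3.27 CPM in WUS-GR and 2.06, 2.55 and 1.32 CPM in Col-0 with DEX. Here the genotypes overlapped with TSA, and only 4 of 12 fits, each without another library, kept it in the set. Markers of the stomatal lineage (FMA, SPCH and MUTE summed) reached 22.5 to 31.4 CPM in WUS-GR and 15.5 to 18.5 CPM in Col-0 with DEX plus TSA, against 10.7 to 12.1 CPM in WUS-GR and 5.75 to 7.13 CPM in Col-0 with DEX. This sum was higher in WUS-GR in both treatments and did not turn. FMA had 61 to 464 counts per library, SPCH 9 to 95 and MUTE 0 to 6, and the markers were not compared singly.

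WOODEN LEG (WOL), a histidine kinase receptor of cytokinin, had 2.07, 1.98 and 3.04 CPM in WUS-GR and 3.54, 4.08 and 3.73 CPM in Col-0 with DEX plus TSA. With DEX it had 2.80, 3.24 and 2.43 CPM in WUS-GR and 1.31, 1.43 and 1.09 CPM in Col-0. Its highest condition was Col-0 with TSA and its lowest was Col-0 without, so the wild type moved more than WUS-GR. BREVIS RADIX (BRX), a regulator of root growth and of phloem differentiation, had the same arrangement. It had 4.13, 4.75 and 3.44 CPM in WUS-GR and 8.23, 9.23 and 7.66 CPM in Col-0 with DEX plus TSA, and 6.98, 6.75 and 7.03 CPM in WUS-GR and 3.74, 2.36 and 1.84 CPM in Col-0 with DEX. The differences were large in both directions, at -1.02 with TSA and 1.41 without, and the genotypes did not overlap in either treatment.

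FRK1, RLP9 and AT1G61460 were ordered differently, with the highest values in WUS-GR without TSA. FLG22-INDUCED RECEPTOR-LIKE KINASE 1 (FRK1), a common marker of the response to bacterial flagellin, had 5.49, 2.89 and 4.08 CPM in WUS-GR and 5.47, 8.00 and 6.28 CPM in Col-0 with DEX plus TSA. It had 26.4, 17.7 and 21.4 CPM in WUS-GR and 10.4, 10.1 and 17.3 CPM in Col-0 with DEX. The receptor-like protein RLP9 had 16.4, 12.9 and 12.2 CPM in WUS-GR and 25.1, 19.2 and 22.2 CPM in Col-0 with DEX plus TSA, and 69.8, 66.3 and 63.3 CPM in WUS-GR and 36.2, 45.4 and 52.2 CPM in Col-0 with DEX. In both genes all 6 TSA libraries lay below all 6 untreated libraries, and in FRK1 the genotypes overlapped with TSA. The putative S-locus receptor kinase AT1G61460 followed the same order, with 0.768, 0.792 and 0.480 CPM in WUS-GR and 2.21, 1.78 and 1.56 CPM in Col-0 with DEX plus TSA and 4.0, 5.92 and 4.82 CPM in WUS-GR and 3.56, 3.24 and 2.78 CPM in Col-0 with DEX.

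FLOR1 (FLR1), a leucine-rich repeat protein that binds a MADS-domain flowering regulator, had one of the largest turns. With DEX plus TSA it had 1.95, 1.70 and 1.92 CPM in WUS-GR and 5.19, 6.42 and 3.83 CPM in Col-0, and with DEX 9.47, 7.36 and 5.93 CPM in WUS-GR and 4.93, 2.27 and 1.75 CPM in Col-0. The genotypes were separate in both treatments, with log2 differences of -1.39 with TSA and 1.43 without. The kinases SNRK2-8, of the family activated by osmotic stress, and CIPK16, which works with calcineurin B-like calcium sensors, turned by less. SNRK2-8 had 26.0, 25.3 and 26.4 CPM in WUS-GR and 43.6, 38.7 and 47.1 CPM in Col-0 with DEX plus TSA, and 56.1, 61.3 and 68.8 CPM in WUS-GR and 27.8, 32.3 and 36.9 CPM in Col-0 with DEX. RLP32, another receptor-like protein, was also highest in WUS-GR without TSA but lowest in untreated Col-0, and its replicates overlapped with TSA. The remaining genes of this group, RLP32, TET10, CIPK16 and the kinases AT1G66880 and AT5G03320, changed by -1.76, -1.09, -1.56, -1.60 and -1.23 on the log2 scale between the treatments.

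Regulators of transcription, chromatin and RNA made up 13 of the 83 genes. MONOPTEROS (MP), an auxin response factor needed for the embryonic axis and for flower initiation, had 8.33, 8.77 and 9.52 CPM in WUS-GR and 17.7, 17.9 and 12.7 CPM in Col-0 with DEX plus TSA. With DEX it had 9.93, 14.3 and 17.0 CPM in WUS-GR and 9.05, 8.29 and 5.80 CPM in Col-0. The genotypes were separate in each treatment, while WUS-GR with TSA overlapped untreated Col-0, and Col-0 with TSA overlapped untreated WUS-GR. Its promoter is shown because it holds the letters TTAATGG, one of the short sequences given for WUS binding, on the strand of the gene (chr1:6886580-6886609 of TAIR10.1, plus strand, capitals mark the motif, which starts 78 bp before the annotated transcription start).
MP: ttattttataaTTAATGGgaaacaataaaa
MP is at chromosome 1, 6886669 to 6891404. It was the 1 member among 17 tested auxin response factors. Of these 17 genes 10 were higher and 2 lower with TSA averaged over genotypes at an adjusted p under 0.05 (edgeR, over all genes tested), against 37.5% and 38.6% of all genes. The Aux/IAA repressors (23 tested, 19 higher and 3 lower with TSA) and the genes of auxin perception and transport (24 tested, 19 higher and 4 lower) held 0 of the 83 genes.

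AINTEGUMENTA (ANT), an AP2-domain factor that promotes cell proliferation in organ primordia, had 14.4, 12.4 and 16.9 CPM in WUS-GR and 19.5, 23.5 and 22.1 CPM in Col-0 with DEX plus TSA. It had 10.6, 9.82 and 10.8 CPM in WUS-GR and 6.55, 5.51 and 2.88 CPM in Col-0 with DEX. All 6 TSA libraries lay above the untreated ones, and the genotypes were separate in both treatments. HB-7 (AT5G46880), a homeodomain-leucine zipper protein of the class active in the epidermis, had 3.90, 3.90 and 5.28 CPM in WUS-GR and 6.57, 10.6 and 8.84 CPM in Col-0 with DEX plus TSA, and 6.02, 6.53 and 5.35 CPM in WUS-GR and 2.81, 3.24 and 2.41 CPM in Col-0 with DEX. None of the 4 conditions overlapped another, although the highest WUS-GR value without TSA came close to the lowest Col-0 value with TSA.

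WRKY2, which acts in polar growth of the zygote and in seed germination, was highest in WUS-GR with DEX. Its values were 3.01, 3.17 and 2.64 CPM in WUS-GR and 6.30, 5.20 and 4.30 CPM in Col-0 with DEX plus TSA, and 8.23, 8.94 and 7.65 CPM in WUS-GR and 4.62, 3.89 and 2.22 CPM in Col-0 with DEX. MYB17, also known as a regulator of the identity of floral meristems, was highest in Col-0 with TSA. It had 2.66, 2.94 and 3.28 CPM in WUS-GR and 5.08, 5.00 and 3.92 CPM in Col-0 with DEX plus TSA, and 2.90, 2.28 and 2.83 CPM in WUS-GR and 2.18, 1.94 and 0.849 CPM in Col-0 with DEX. In both factors the genotypes did not overlap in either treatment. The factor AT4G01580, with a B3 domain, had overlapping genotypes with TSA, and it stayed in the set in 4 of the 12 fits without 1 library.

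**Figure D3:**
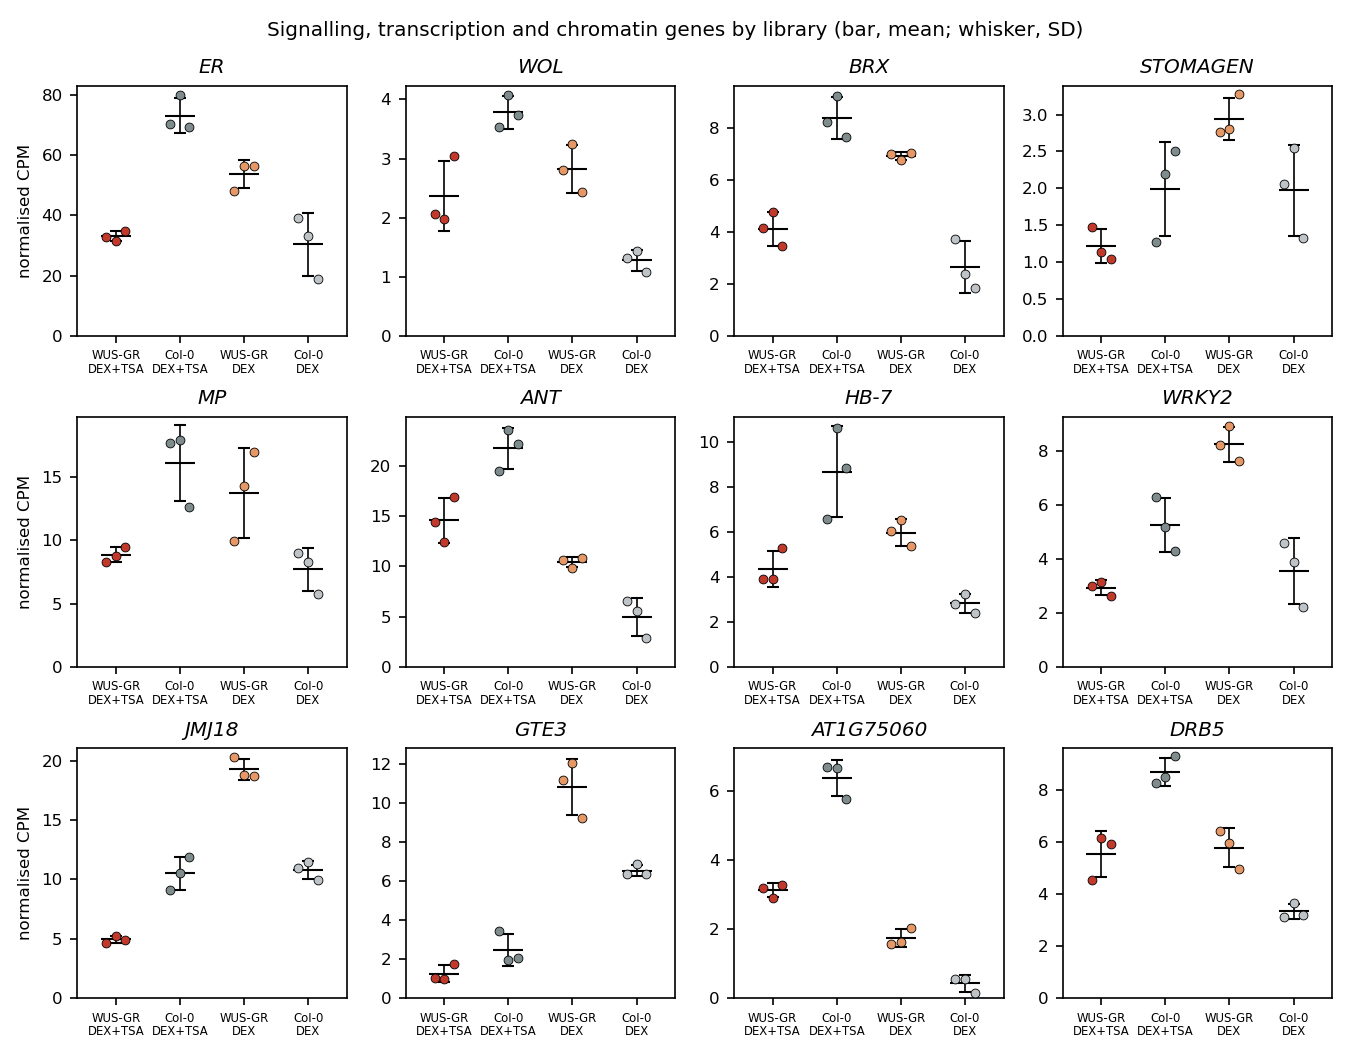
Normalised CPM (vertical axis, from 0) in each library of 12 genes for signalling, transcription and chromatin, by condition. Points are replicates, horizontal bars means and whiskers SD (n = 3). In each panel the WUS-GR mean lies below Col-0 with DEX plus TSA and above it with DEX. For ANT and AT1G75060 both TSA conditions are above the untreated ones, and for GTE3 both are below.

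Among the chromatin genes, JMJ18, a jumonji demethylase of histone H3 lysine 4, had 3 levels. It had 4.67, 5.26 and 4.88 CPM in WUS-GR and 9.12, 10.6 and 11.9 CPM in Col-0 with DEX plus TSA, and 20.3, 18.8 and 18.7 CPM in WUS-GR and 11, 11.5 and 9.96 CPM in Col-0 with DEX. The Col-0 libraries of both treatments overlapped, while WUS-GR lay below them with TSA and above them without. JMJ18 shares 1177 bp of exon with AT1G30800 on the other strand, and because the strand setting of the counting is not given in the sources used here, reads of these genes may not be fully separated. GTE3, a bromodomain protein of a family that binds acetylated histones, was lower with TSA in both genotypes. It had 1.00, 0.962 and 1.76 CPM in WUS-GR and 3.43, 1.94 and 2.03 CPM in Col-0 with DEX plus TSA, and 11.2, 12.1 and 9.24 CPM in WUS-GR and 6.36, 6.85 and 6.37 CPM in Col-0 with DEX.

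AT1G75060, annotated as a subunit of a histone deacetylase complex, had the opposite TSA effect. It had 3.19, 2.89 and 3.28 CPM in WUS-GR and 6.69, 6.68 and 5.77 CPM in Col-0 with DEX plus TSA, against 1.56, 1.62 and 2.03 CPM in WUS-GR and 0.561, 0.555 and 0.142 CPM in Col-0 with DEX. Its lowest library, of Col-0 in DEX, held 3 counts, so the difference of 1.95 in DEX rests on few reads. SGF29a, a tudor-domain protein of the SAGA acetyltransferase complex, had 0.886, 1.64 and 2.16 CPM in WUS-GR and 2.93, 2.65 and 3.17 CPM in Col-0 with DEX plus TSA, and 4.50, 4.03 and 4.33 CPM in WUS-GR and 2.50, 3.56 and 2.88 CPM in Col-0 with DEX. The genotypes were separate in both treatments. TRFL8, a MYB-like protein related to telomere-binding factors, the double-stranded RNA-binding protein DRB5 and the RNA-binding protein AT1G51520 changed by -1.93, -1.42 and -1.60 on the log2 scale between the treatments. The list of chromatin and DNA replication genes had 257 tested members, and 1 of them, AT1G75060, was among the 83. Of the 257 genes 104 were higher and 94 lower with TSA, against 37.5% and 38.6% of all genes. Each gene was placed only in the first list whose text search it matched, so this list lacks genes taken by an earlier one. JMJ18 was placed among the zinc finger proteins, and GTE3 and SGF29a matched no list.

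Genes of the cell wall, glycans and lipids numbered 12. EXPA15, an expansin that loosens cell walls, had 4.02, 3.39 and 4.80 CPM in WUS-GR and 7.90, 9.79 and 7.23 CPM in Col-0 with DEX plus TSA. In DEX it had 1.19, 1.05 and 1.42 CPM in WUS-GR and 0.374, 0.278 and 0.378 CPM in Col-0. The 4 conditions did not overlap, and the lowest library held 6 counts. LTL1, a lipase that gives lithium tolerance to yeast, had 3.07, 2.55 and 2.96 CPM in WUS-GR and 7.29, 6.63 and 6.52 CPM in Col-0 with DEX plus TSA, and 2.16, 3.59 and 3.45 CPM in WUS-GR and 2.18, 1.34 and 0.566 CPM in Col-0 with DEX. WUS-GR overlapped between treatments, and the genotypes overlapped in DEX.

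KCS12, a condensing enzyme of very-long-chain fatty acid synthesis, had 14, 13.0 and 15.6 CPM in WUS-GR and 31.4, 28.7 and 29.1 CPM in Col-0 with DEX plus TSA. It had 20.7, 23.2 and 17.6 CPM in WUS-GR and 16.2, 14.7 and 12.3 CPM in Col-0 with DEX. WUS-GR with TSA lay within the range of untreated Col-0. LGT8, a glycosyltransferase of family 8, had 22.2, 26.2 and 22.1 CPM in WUS-GR and 35.0, 36.5 and 32.3 CPM in Col-0 with DEX plus TSA, and 56.3, 46.9 and 39.1 CPM in WUS-GR and 21.7, 22.4 and 25.2 CPM in Col-0 with DEX. This gene also had overlapping values in TSA-treated WUS-GR and untreated Col-0. AT1G61065, of a family with an uncharacterised domain, had 3.19, 2.09 and 2.24 CPM in WUS-GR and 3.92, 3.31 and 3.78 CPM in Col-0 with DEX plus TSA, and 17.5, 14 and 16.4 CPM in WUS-GR and 6.61, 5.37 and 4.86 CPM in Col-0 with DEX, the highest of the 4 conditions being WUS-GR without TSA. The lipid genes CPI1, a sterol isomerase, AT4G01130, AT1G09390 and AT3G16510 changed by -1.48, -2.04, -1.72 and -1.75 on the log2 scale, and the glycan genes ENGase85A and AT3G15350 and the hydroxyproline-rich glycoprotein AT5G49280 by -1.07, -1.31 and -1.14. The list of lipid metabolism held 5 of the 83 genes among 293 tested, where 17915 genes were tested in all. Of these 293 genes 126 were higher and 96 lower with TSA, against 37.5% and 38.6% of all genes.

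Lectins and proteins of seeds, storage and defence gave another 12 genes, whose median change between treatments was -1.90 on the log2 scale. MBP1, a lectin that binds the glucosinolate-cleaving enzyme myrosinase, had 0.472, 7.13 and 0.640 CPM in WUS-GR and 9.39, 3.06 and 4.44 CPM in Col-0 with DEX plus TSA, and 6.43, 8.33 and 6.68 CPM in WUS-GR and 0.749, 4.03 and 4.91 CPM in Col-0 with DEX. The second replicate of WUS-GR with TSA was more than 10 times the other 2, and the genotypes overlapped with TSA, so that the largest change of all 83 genes (-3.29) belonged to a gene with a wide spread between replicates. Related jacalin lectins had replicates closer together. JAL33 had 41.6, 35.5 and 50.1 CPM in WUS-GR and 77.7, 50.3 and 61.5 CPM in Col-0 with DEX plus TSA, and 80.4, 89.6 and 90.9 CPM in WUS-GR and 45.6, 44.8 and 55.8 CPM in Col-0 with DEX. AT1G52100 had 25.3, 28.0 and 26.2 CPM in WUS-GR and 45.0, 34.5 and 43.2 CPM in Col-0 with DEX plus TSA, and 20.5, 21.6 and 24.2 CPM in WUS-GR and 15.4, 13.2 and 8.26 CPM in Col-0 with DEX. Lectin genes of this kind have close relatives, as do VSP2, MLP34, CYP72A14 and the knottin-like genes, and how reads mapping to several genes were counted is not given in the sources used here.

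Genes known from maturing seeds were at low levels. LEA18, a late embryogenesis abundant protein, had 2.19, 1.41 and 3.68 CPM in WUS-GR and 8.18, 8.31 and 6.66 CPM in Col-0 with DEX plus TSA, and 4.73, 4.21 and 4.64 CPM in WUS-GR and 3.43, 2.92 and 1.42 CPM in Col-0 with DEX. AT1G54870, a protein with a nucleotide-binding fold, had 1.24, 0.905 and 4.24 CPM in WUS-GR and 6.19, 11.7 and 4.68 CPM in Col-0 with DEX plus TSA, and 4.92, 4.38 and 5.39 CPM in WUS-GR and 2.74, 3.10 and 2.50 CPM in Col-0 with DEX. In both the genotypes were separate in each treatment. AT2G21820, annotated as a seed maturation protein, had 1.18, 0.962 and 1.84 CPM in WUS-GR and 1.99, 1.99 and 2.36 CPM in Col-0 with DEX plus TSA, and 5.05, 5.39 and 7.34 CPM in WUS-GR and 2.12, 1.81 and 1.70 CPM in Col-0 with DEX. The abundant seed storage genes CRA1 and OLEO1 had at most 3 and 1 counts in any library.

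VSP2, an acid phosphatase stored in leaves and induced by jasmonate, had 2.72, 4.53 and 3.44 CPM in WUS-GR and 6.80, 9.84 and 11.7 CPM in Col-0 with DEX plus TSA. It had 5.47, 6.97 and 4.20 CPM in WUS-GR and 2.99, 2.82 and 1.27 CPM in Col-0 with DEX. The genotypes were separate in both treatments, and the highest levels were those of the wild type with TSA. The thaumatin-like AT2G28790, MLP34, the cystatin-like AT4G16500 and the knottin-like AT2G43530 and AT2G43535 changed by -1.84, -1.74, -1.09, -1.96 and -1.65 on the log2 scale. AT4G16500 met the rule in only 2 of the 12 fits without 1 library, the fewest of all members.

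**Figure D4:**
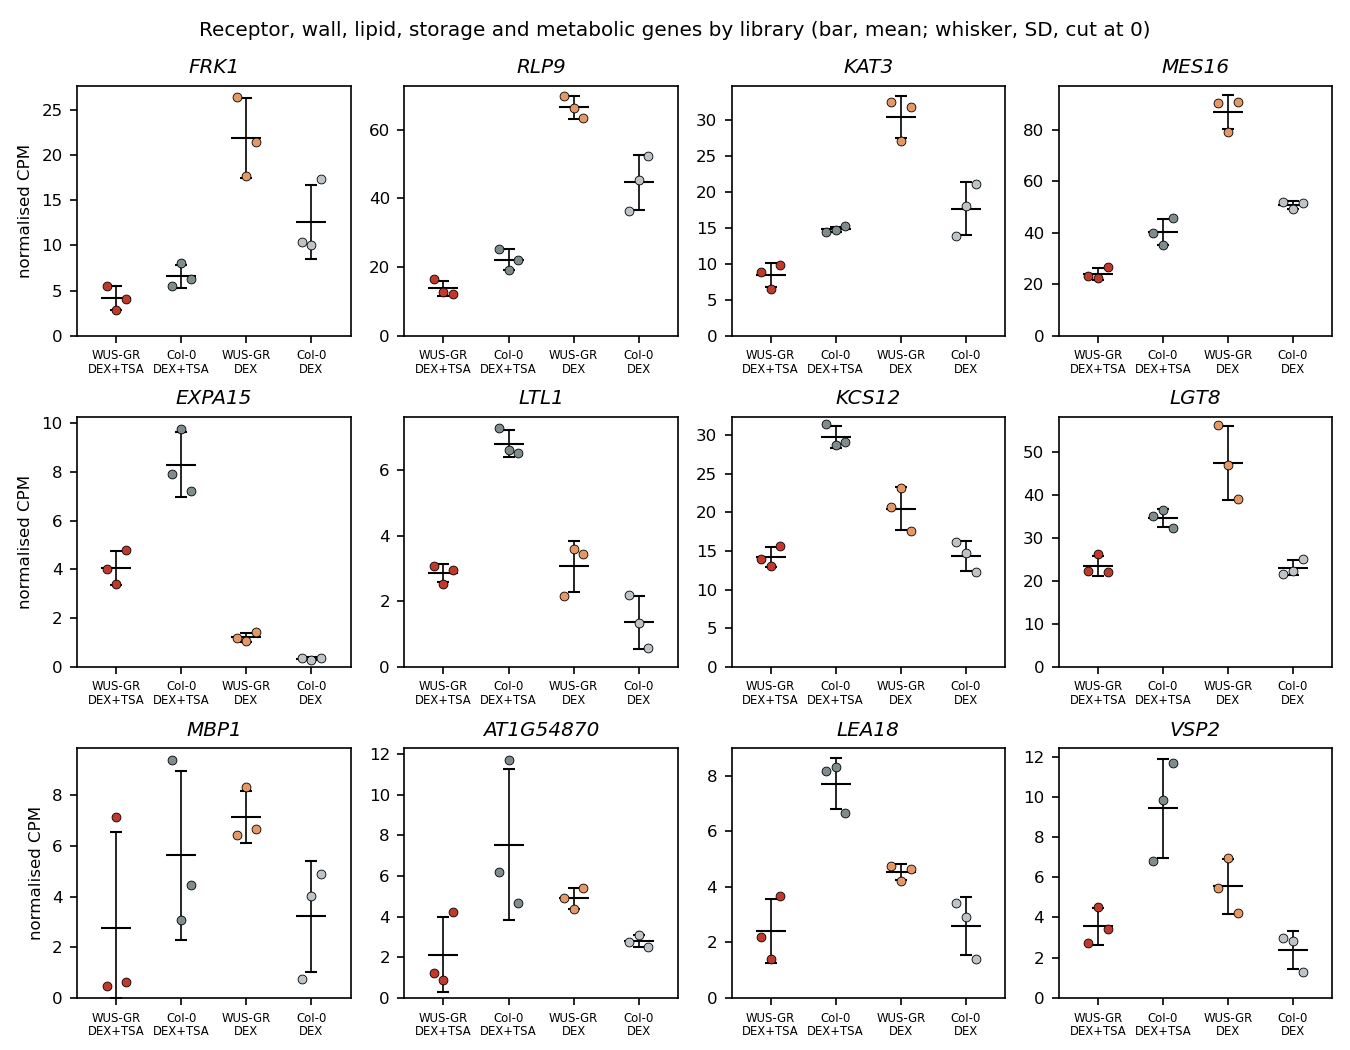
Normalised CPM (vertical axis, from 0) in each library of 12 genes for receptors, transport, metabolism, cell wall, lipids, storage and seed proteins, by condition. Points are replicates, bars means and whiskers SD (n = 3). FRK1, RLP9, KAT3 and MES16 are highest in WUS-GR with DEX and lowest in WUS-GR with DEX plus TSA, whereas EXPA15, LTL1, KCS12, LEA18 and VSP2 are highest in Col-0 with DEX plus TSA. The spread of MBP1 and AT1G54870 with TSA is wide.

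Membrane transport was represented by 7 genes. KAT3, a subunit that modulates inward potassium channels, had 8.86, 6.56 and 9.84 CPM in WUS-GR and 14.5, 14.7 and 15.3 CPM in Col-0 with DEX plus TSA, and 32.5, 27.1 and 31.9 CPM in WUS-GR and 13.8, 18.1 and 21.2 CPM in Col-0 with DEX. AT3G27870, a P-type ATPase, had the largest difference in DEX, at 2.14. It had 1.65, 3.28 and 2.80 CPM in WUS-GR and 3.09, 5.00 and 4.11 CPM in Col-0 with DEX plus TSA, and 13.9, 12.4 and 11.5 CPM in WUS-GR and 2.12, 3.38 and 2.97 CPM in Col-0 with DEX. In DEX each WUS-GR library stood above each Col-0 library, in values by which the gene was chosen, while with TSA the genotypes overlapped. SGB1, a sugar transporter-like protein that acts genetically with a G protein beta subunit, had 5.20, 4.87 and 7.20 CPM in WUS-GR and 11, 11.9 and 12.3 CPM in Col-0 with DEX plus TSA, and 5.28, 5.35 and 5.04 CPM in WUS-GR and 4.80, 3.43 and 2.31 CPM in Col-0 with DEX. WUS-GR overlapped between treatments, as in LTL1. The amino acid transporter LHT2, the choline transporter-like AT1G25500, the carrier AT3G59310 and AT4G22120 changed by -1.69, -1.18, -1.33 and -1.63 on the log2 scale.

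Enzymes of metabolism, with the starch-targeting protein AT5G39790 placed among them, numbered 11 and were mostly highest in WUS-GR without TSA. MES16, a methyl esterase of chlorophyll breakdown, had 23.2, 22.3 and 26.7 CPM in WUS-GR and 39.9, 35.3 and 45.6 CPM in Col-0 with DEX plus TSA, and 90.4, 79.2 and 90.7 CPM in WUS-GR and 51.8, 49.2 and 51.4 CPM in Col-0 with DEX. PFK3, a phosphofructokinase of glycolysis, had 2.78, 2.38 and 3.36 CPM in WUS-GR and 4.81, 3.26 and 5.20 CPM in Col-0 with DEX plus TSA, and 8.59, 9.03 and 10.4 CPM in WUS-GR and 2.68, 3.19 and 2.50 CPM in Col-0 with DEX. In PFK3 the 3 WUS-GR libraries without TSA stood above all others, and the genotypes overlapped with TSA. CYP72A14, a cytochrome P450, had 1.59, 0.962 and 2.16 CPM in WUS-GR and 2.71, 2.40 and 2.65 CPM in Col-0 with DEX plus TSA, and 10.3, 10.2 and 10.2 CPM in WUS-GR and 3.81, 4.30 and 6.75 CPM in Col-0 with DEX. AT4G20430, a subtilase, was the 1 enzyme higher with TSA, with 3.96, 4.47 and 3.20 CPM in WUS-GR and 6.96, 7.49 and 5.10 CPM in Col-0 with DEX plus TSA, and 2.34, 2.06 and 1.90 CPM in WUS-GR and 1.12, 1.30 and 0.802 CPM in Col-0 with DEX. Changes of the others in this group ran from -1.91 for HMT3, a homocysteine methyltransferase, and -1.85 for AT5G39790, which targets a starch synthase to starch, to -1.09 for the arginyl-tRNA synthetase AT1G66530.

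Genes of protein turnover and repeat proteins made up 9. FBS3, a stress-induced F-box protein, had 0.413, 0.792 and 0.720 CPM in WUS-GR and 1.49, 0.714 and 1.04 CPM in Col-0 with DEX plus TSA, and 9.37, 9.82 and 7.65 CPM in WUS-GR and 3.81, 4.35 and 6.13 CPM in Col-0 with DEX. The treated libraries held few reads, 7 in the lowest, and the genotypes overlapped there. AT2G18670, a RING-type protein, had 3.13, 3.17 and 3.04 CPM in WUS-GR and 5.08, 4.79 and 5.67 CPM in Col-0 with DEX plus TSA, and 23.0, 21.5 and 20.2 CPM in WUS-GR and 13.5, 12.6 and 14.1 CPM in Col-0 with DEX, and its 4 conditions were fully separate. The ubiquitin ligase XBAT32 and the gene called TSA1 (TSK-associating protein 1, not related to the drug) changed by -1.50 and -1.99 on the log2 scale. The last 5 genes are listed as unknown or uncharacterised proteins, AT5G45660 also with the product name adenine phosphoribosyltransferase, and AT1G70100, one of them, had 23.9, 21.0 and 20.7 CPM in WUS-GR and 49.3, 42.3 and 50.8 CPM in Col-0 with DEX plus TSA, and 56.8, 53.4 and 53.1 CPM in WUS-GR and 24.2, 31.8 and 30.5 CPM in Col-0 with DEX.

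The rule did not use the TSA effect averaged over the genotypes, and this effect was tested. With equal replicate numbers it is uncorrelated with both genotype differences only where replicates of the 2 genotypes vary equally within each treatment. For each library, deviations of the 83 genes from their condition means were summarised by a scaled median absolute deviation around the library's median. It was 0.200 to 0.327 in the Col-0 libraries with DEX, against 0.126 to 0.177 in WUS-GR with DEX. With DEX plus TSA it was 0.196 to 0.236 in WUS-GR, against 0.174 to 0.199 in Col-0. The averaged effect is therefore not fully independent of the choice. A low WUS-GR library with TSA lowers both the difference with TSA and the averaged effect. A low Col-0 library in DEX raises both the difference in DEX and the averaged effect, and without the lowest (replicate 3) 26 members were called higher and 43 lower. Averaged over WUS-GR and Col-0, 26 of the 83 genes (31.3%) were higher and 46 (55.4%) lower in DEX plus TSA than in DEX, and 11 did not pass (edgeR quasi-likelihood test, adjusted p under 0.05 over 17915 genes). Over all genes tested 37.5% were higher and 38.6% lower. The median averaged log2 fold change was -0.39 over the 83 genes, with quartiles of -0.90 and 0.54, against a median near 0 (-0.000225) over all genes, and 0.26 over the 111 genes of the opposite turn, of which 56 were higher and 44 lower. All 6 TSA libraries were above all 6 untreated libraries for 7 of the 83 genes (15.8% of all genes) and below them for 14 (19.8% of all genes). For the 42 genes with opposite signs in the genotypes this average is the middle of 2 unlike effects and describes neither.

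The 4 highest averaged effects were those of EXPA15, at 3.15 ± 0.16 (SE) on the log2 scale (adjusted p = 7.97e-11), the deacetylase complex gene AT1G75060 at 2.39 ± 0.19 (adjusted p = 1.08e-08), the subtilase AT4G20430 at 1.74 ± 0.16 (adjusted p = 4.60e-08) and the transporter-like AT1G25500 at 1.36 ± 0.11 (adjusted p = 1.65e-08). In these genes the effect was positive in both genotypes, with the larger value in Col-0, and the effect on EXPA15 was 1.65 in WUS-GR and 4.23 in Col-0. ANT, with a positive effect in both genotypes, averaged 1.31 ± 0.14 (adjusted p = 3.25e-07). WOL averaged 0.64 ± 0.15 (adjusted p = 0.00116), from -0.26 in WUS-GR and 1.5 in Col-0. BRX averaged 0.47 ± 0.14 (adjusted p = 0.00604), from -0.75 in WUS-GR and 1.68 in Col-0. The call for BRX was lost when libraries were scaled to their totals alone (adjusted p = 0.152). ER passed narrowly, at 0.29 ± 0.13 (adjusted p = 0.0496, -0.69 in WUS-GR and 1.33 in Col-0), and lost its call in 10 of the 12 fits without 1 library, with adjusted p of up to 0.106, and with libraries scaled to their totals alone (adjusted p = 0.773). MP, at 0.22 ± 0.14, did not pass (adjusted p = 0.172).

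The 4 lowest averaged effects were those of FBS3, at -2.97 ± 0.20 (adjusted p = 1.21e-09), GTE3 at -2.29 ± 0.16 (adjusted p = 2.77e-09), AT2G18670 at -2.08 ± 0.08 (adjusted p = 2.53e-12) and CYP72A14 at -1.85 ± 0.17 (adjusted p = 5.91e-08). In each of them the effect was negative in both genotypes, with the larger size in WUS-GR, and the effect on GTE3 was -3.06 in WUS-GR and -1.41 in Col-0. AT1G61460, FRK1 and RLP9 fell too, with averaged effects of -1.80 ± 0.17, -1.67 ± 0.17 and -1.63 ± 0.10, as did JMJ18 (-1.0 ± 0.08) and KAT3 (-1.07 ± 0.11). RLP32, at 0.07 ± 0.26, did not pass (adjusted p = 0.814). LGT8 (-0.21 ± 0.09), LHT2 (-0.44 ± 0.17), FLR1 (-0.60 ± 0.23), CIPK16 (-0.39 ± 0.14) and AT2G43535 (-0.27 ± 0.11) passed with all libraries and lost the call in 5, 4, 4, 4 and 5 of the 12 fits without 1 library. LGT8, LHT2 and AT2G43535 also lost it with RLE scaling (the type of size factor DESeq2 uses, here computed in edgeR) and with the DESeq2 Wald test. MLP34 (0.99 ± 0.42) and AT4G22120 (0.49 ± 0.19, with -0.26 in WUS-GR and 1.37 in Col-0) lost the call in 7 and 1 of the fits without 1 library. Both also lost it with library totals, and MLP34 with the DESeq2 Wald test. For AT4G22120 the adjusted p was 0.0642 without replicate 1 of WUS-GR with DEX plus TSA and 0.248 with library totals.

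By role, 8 of 11 genes grouped as enzymes of metabolism were called lower with TSA and 1 higher. Of the 9 genes grouped as protein turnover and repeat proteins, 7 were called lower and 1 higher. Among all genes, 38.6% were lower and 37.5% higher. The group of receptors, peptides and kinases had 9 lower and 3 higher of 14, and transcription, chromatin and RNA genes had 7 higher and 5 lower of 13. Wall, glycan and lipid genes had 5 higher and 5 lower of 12, lectins, seed, storage and defence proteins 4 higher and 5 lower of 12, and transport genes 4 higher and 3 lower of 7. This grouping was made by hand once the members were known, so the counts describe these genes only and nothing is read from their differences between roles.

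The 83 genes were less abundant than genes at large, with a median of 2.22 log2 CPM over all libraries against 4.14 for the 14065 nuclear genes above the level limit and 3.78 for the 111 genes of the opposite turn. In 6 of them at least 1 library had fewer than 10 counts, and the lowest value was 3. Their median exonic length (1797 bp) and GC content (40.6%) were near those of all tested genes (1809 bp and 41.2%). Exons of 14 genes overlapped a gene on the other strand (16.9%, against 27.5% of tested genes), in 3 of them (JMJ18, AT3G59310 and AT4G17940) over more than 25% of the exonic length. AT2G18670 and SGB1 overlapped a gene on the same strand, AT2G18680 (210 bp of 1166 bp) and AT1G79830 (66 bp of 2764 bp). Reads in these stretches cannot be separated by strand.

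Within conditions the 83 genes did not vary as 1 unit. After the condition means were removed, the mean pairwise correlation of their log2 CPM over the 12 libraries was 0.049, against 0.00079 for all genes and 0.085 for the opposite set, a description over libraries that share depth and handling. The third Col-0 replicate in DEX stood lowest, with a median deviation of the 83 genes of -0.11 from the condition mean, and it held the lowest of the 3 values for 42 genes (50.6%, against 37.6% of all genes). ER, ANT, BRX and AT4G22120 are examples in which this library was the low one, which raises their difference in DEX. Without it, 73 of the 83 genes still met the rule. When each library was omitted in turn, 31 genes met the rule every time, 52 were lost at least once and 5 were lost in 6 or more. ER, MP, WOL, BRX, FLR1, WRKY2, HB-7, JMJ18, GTE3, DRB5, VSP2, LEA18, MBP1 and AT1G54870 were among those that always met it.

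The genes lay on all 5 chromosomes, with 25, 15, 16, 13 and 14 on chromosomes 1 to 5. Neighbouring members were found at 2 places. LGT8 and AT1G70100 follow each other on the same strand of chromosome 1 (26400694 to 26406190), with 162 bp between them, and their log2 CPM had a Pearson correlation of 0.88 over the 12 libraries. On chromosome 2 (18070110 to 18073100) AT2G43530, AT2G43535 and AT2G43540 lie in a row on the same strand, 436 and 300 bp apart. The 2 knottin-like genes of this row had a correlation of 0.86 and AT2G43535 and AT2G43540 of 0.67. Those correlations are over conditions by which the genes were chosen, and genes so close may share reads at their ends.

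Short motifs were counted on both strands in promoter windows of 300 bp, from 250 bp before to 50 bp after the annotated start, taken from the RefSeq annotation of TAIR10.1. The WUS motif TTAATGG was in 12% of the windows of the 83 genes (10 genes), 8.76% of those of tested genes and 7.25% of all annotated promoters. The WUS core TCATTA, which can share 3 letters with it, was in 30.1%, 26.9% and 26.2%. The G-box CACGTG was in 16.9% (14 genes), 9.22% and 6.45%. The auxin response element TGTCTC was in 13.3% of the member windows, 13.4% of those of tested genes and 14.1% of all promoters. For TGTCGG the shares were 12%, 5.67% and 5.05%. W-box forms TTGACC and TTGACT were in 16.9% and 30.1%, against 13.4% and 21.2% of all promoters, the evening element core AATATCT in 9.64%, against 10.8%, the TCP core GGNCCC in 4.82%, against 8.48%, and the TATA box TATAAA in 47.0%, against 48.7%. A match is a description of letters in the window.

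The windows with the WUS motif (capitals, here read as its reverse complement along the strand of the gene) of FLR1, LGT8 and SGB1 are given with their place: FLR1 at chr3:3876460-3876489 on the minus strand, LGT8 at chr1:26400550-26400579 and SGB1 at chr1:30027780-30027809 on the minus strand.
FLR1: ctcattacattCCATTAAtatgtcatatac
LGT8: tccaaaagccaCCATTAAatttcactctta
SGB1: ggtggagagacCCATTAAtaatgggattcg
The G-box windows are shown for the genes with large turns among seed and lectin genes and for 2 transcription factors, with the G-box in capitals: LEA18 at chr2:14863450-14863479 and MBP1 at chr1:19352879-19352908 on the minus strand, AT1G54870 at chr1:20458894-20458923, HB-7 at chr5:19030668-19030697 and WRKY2 at chr5:22779584-22779613 on the plus strand.
LEA18: atctacgtattaCACGTGgtgataacccag
MBP1: tttacgtaattaCACGTGttctccagcatg
AT1G54870: cacgtttaccaaCACGTGtatcctcctccg
HB-7: ctaatattactcCACGTGgcaagacggtgg
WRKY2: ttaattctctaactccaattactcCACGTG
In LEA18, MBP1 and AT1G54870 the capitals begin 55, 105 and 46 bp before the annotated start, and in HB-7 and WRKY2 164 and 6 bp before it.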

How the data were processed

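Poly(A) RNA of 12 libraries was sequenced by the study with a directional kit, and the authors aligned the reads with HISAT2 to TAIR10 and counted them per gene with featureCounts. The table the authors deposited holds raw counts for each library, not normalised. Which annotation release was used, whether strand was counted and how multi-mapping reads were treated are not given in the sources used here. All 12 columns were used as deposited. Gene names and positions came from the RefSeq annotation of TAIR10.1, in which 32548 of 34262 identifiers (95.0%) were found.

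Genes were filtered with filterByExpr by condition (minimum count 10), and libraries were normalised with TMM in edgeR 4.0.16 (limma 3.58.1, R 4.3.3). Log2 CPM used a prior count of 2. A quasi-likelihood model with 1 mean for each of the 4 conditions was fitted to all 17915 genes, and p-values were adjusted over all of them by the Benjamini-Hochberg method at 0.05. The TSA effect was averaged over the genotypes with equal weights. DESeq2 1.42.0 served as an alternative, and the fit was tested on simulated data. Counts were handled with pandas 2.3.3 in Python 3.11.15, and plots were drawn with matplotlib 3.10.9. Other alternatives were the scaling, the filter, the prior count, the limit of the difference, the threshold, a replicate block and leaving out each library. With 14810658 to 21578662 counts per library, precision is limited mainly for the 6 members with fewer than 10 counts in a library. Of these, MBP1 and MLP34 spread widely between replicates of the same condition. Within conditions, the replicates varied beyond sampling noise (chi-square per degree of freedom 6.98 to 16.1), so each was kept as its own sample.

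The members and the gene lists were chosen with earlier results of these data known. Text patterns behind the lists that matched unrelated genes were corrected after values had been seen, and the roles were assigned by hand once the members were known. Genes were named by a rule: the 12 lowest changes between treatments, the 8 highest mean levels, up to 3 members per list, the 4 highest and 4 lowest called TSA effects, and the genes at the limits. Other members named in the text, such as WOL, ANT, STOMAGEN, DRB5, SGF29a, KAT3, KCS12, CPI1, HMT3, RLP32, CIPK16 and XBAT32, were chosen after their values were seen.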

Additional observations from a re-analysis of the deposited data

How the results depend on the processing

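The number of genes that met the rule was 83, and it was 209 (the 83 among them) with libraries scaled to their totals alone, 7 with a limit of 1 in place of 0.5 and 142 with a limit of 0.4. Scaling to totals moved the median of all genes by -0.23 (WUS-GR minus Col-0) in DEX plus TSA and by 0.08 in DEX, which eases the rule in both treatments, and moved the TSA effect by -0.39 in WUS-GR and -0.08 in Col-0. With RLE scaling in edgeR, no filter, at least 10 counts in every library and a prior count of 0.5, there were 80, 80, 85 and 79 genes. Leaving out 1 library gave 69 (without replicate 1 of WUS-GR in DEX) to 94 (without replicate 1 of Col-0 in DEX), with 65 to 76 of the 83 shared. The number of members called higher with TSA was 18 to 27 and lower 39 to 48 over all alternatives, and the median averaged effect stayed between -0.63 and -0.30. Of 1291 effects of the 72 called members recomputed at the same threshold of 0.05, 1235 kept the call, 56 in 13 members lost it and 0 changed sign. AT1G51520, AT3G07550, BRX, KCS12 and VSP2 lost it there with library totals alone. At a threshold of 0.01, 11 of the 72 missed, among them KCS12, WRKY2 and STOMAGEN. Replicate numbers did not pair the samples (2 of 18 same-number correlations over 0.1, range -0.27 to 0.12), and a replicate block left 26 members called higher and 46 lower, with a median effect of -0.38. Depth limits AT1G75060, EXPA15, AT1G61460 and FBS3, with 3, 6, 6 and 7 counts in their lowest library. MBP1 and MLP34 had 8 and 9 counts in theirs, while another replicate of the same condition reached 126 and 95 counts. Their limit is the spread between replicates.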
